A study of Homo sapiens with 12 samples.

Results

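The genes described here are 48 genes of the G1/S transition and of DNA replication, taken as a fixed list of symbols. They were read from 90 probe sets, each annotated to 1 member symbol only, and each gene was represented by its probe set with the highest mean over the 12 arrays. All 48 were among the 14283 genes tested of 19775 genes on the array, since each reached the array median (log2 6.62) on at least 2 arrays. They fall into 6 roles: 12 genes of the MCM and GINS helicase, 6 of origin loading, 14 of the polymerases and the replication fork, 6 of nucleotide supply and uracil removal, 6 of the E2F factors and cyclin E, and 4 of histone supply and chromatin copying.

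RCC4 and UMRC2 are established human kidney cancer cell lines without a working VHL tumour suppressor. Per the labels, each was made to express stably FoxO3(TA)ERT2 (called FoxO3), FoxO1(TA)ERT2 (FoxO1) or, as the control, the ERT2 part alone (EV, also labelled empty vector). In the FoxO fusions 3 AKT phosphorylation sites are alanine, and ERT2 is a hormone-binding part of the estrogen receptor that lets 4-hydroxytamoxifen (4OHT) move the fusion into the nucleus. All 6 engineered lines grew in DMEM with 10% fetal bovine serum under puromycin and were given 100 nM 4OHT or ethanol vehicle for 12 h. The result is 12 arrays, 1 for each combination of cell line, construct and treatment. The fusions are overexpressed proteins that AKT cannot keep in the cytoplasm, and per the series' design text no cell cycle arrest or cell death could be seen at 12 h.

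DNA replication is prepared in G1, when the origin recognition complex, CDC6 and CDT1 place the MCM helicase on DNA, and starts in S phase, when CDC7 and cyclin-dependent kinases switch the helicase on together with CDC45 and GINS. Most of these genes are transcribed in late G1 by E2F factors, which pocket proteins of the RB family hold in check until cyclin D and cyclin E kinases act. FoxO factors are known to slow cells in G1, through inhibitors of these kinases and lower cyclin D. In RNA from a whole plate, fewer cells in S phase and less RNA per cell cannot be told apart.

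Levels are log2 intensities after quantile normalisation, and a response is the level with 4OHT minus the level with vehicle in the same engineered line. The 6 UMRC2 arrays and the RCC4 FoxO3 array with 4OHT were deposited at a low intensity level, with a geometric mean of 2239 to 2515 over 18 spike-in control probe sets, against 4212 to 4699 on the other 5 RCC4 arrays. The labels do not say why. The RCC4 FoxO3 pair thus spans both intensity levels, and values without it are given with the comparisons of the fusions. Values as deposited put the median response of all genes tested in that pair at -0.88, against -0.08 after quantile normalisation, while the members' median lay 1.22 and 1.16 below these medians. The kidney markers PAX8, KRT8 and KRT18 reached the array median on all 12 arrays, PAX2 on 11 and NNMT on 8, although PAX8 (-0.88 ± 0.13, adjusted p = 0.0107) and KRT18 (-1.11 ± 0.16, adjusted p = 0.0107) themselves fell with FoxO against EV. PTPRC, VWF and ALB, markers of blood, endothelial and liver cells, reached it on no array, whereas CD3E did on 9 and PECAM1 on 12, and CA9 was not used here. The ERT2 part comes from ESR1, and 5 of 9 ESR1 probe sets were raised in the FoxO lines, that is, well above EV with vehicle in all 4. In EV the median of these 5 was 5.21 with 4OHT and 5.24 with vehicle in RCC4, and 5.75 with 4OHT and 4.59 with vehicle in UMRC2. All 4 lie below the array median, so these probe sets did not show the ERT2 transcript that the EV labels name. The EV levels with vehicle were part of how these probe sets were chosen, and those with 4OHT were not.

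Since E2F factors bind a short motif near the start of such genes, the RefSeq promoter windows (GRCh38.p14, 250 bases before to 50 after each start) were searched for it. The E2F letters were TTTCCCGC, TTTCGCGC, TTTGCCGC or TTTGGCGC on either strand. Of the 48 members, 43 had at least 1 window, 59 windows in all. An E2F match lay in 25 of the 59 windows, or 42.4%, while 3.31% of all 35116 windows of the same length held one. Without the first T the shares were 64.4% and 13%. Member windows were also richer in G and C, with a median of 67.3% against 58.7% over all windows, and the effect of that on the share was not tested. The FoxO letters TGTTTAC lay in 3.39% of the member windows, both of MCM7, and in 3.42% of all windows, and CCAAT in 50.8% and 34.6%.

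The stretches below lie just before the start of 6 members, 5 with an E2F match and 1 without, chosen to set the sequence beside the responses that follow. They are MCM6 at chr2:135876514-135876603 on the minus strand, CDC7 at chr1:91501032-91501091 on the plus strand, PCNA at chr20:5126643-5126702 on the minus strand, UNG at chr12:109098092-109098151 on the plus strand, E2F1 at chr20:33686386-33686445 on the minus strand and RRM2 at chr2:10122488-10122547 on the plus strand. Each is written 5′ to 3′ on the gene's own strand, and capitals mark E2F matches on either strand. In MCM6 each run of capitals holds a pair of overlapping matches, 1 on each strand. RRM2 had no E2F match in any of its windows. Without the first T, all 6 genes of nucleotide supply, RRM2 included, had a match.
MCM6: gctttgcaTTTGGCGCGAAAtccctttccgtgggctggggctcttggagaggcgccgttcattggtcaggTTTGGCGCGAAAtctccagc
CDC7: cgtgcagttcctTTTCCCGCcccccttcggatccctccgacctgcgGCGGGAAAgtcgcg
PCNA: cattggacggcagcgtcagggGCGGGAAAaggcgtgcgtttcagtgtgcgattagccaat
UNG: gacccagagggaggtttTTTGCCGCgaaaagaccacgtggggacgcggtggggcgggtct
E2F1: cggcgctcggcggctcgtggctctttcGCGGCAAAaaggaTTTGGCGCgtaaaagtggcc
RRM2: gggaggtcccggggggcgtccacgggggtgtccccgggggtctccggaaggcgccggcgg

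The first comparison asked whether either FoxO lowered these genes beyond 4OHT itself. A fall was common: 26 of 48 members were lower in the FoxO lines than in EV and none was higher, with limma and an adjusted p below 0.05, when 4.73% of all genes tested were lower and 3.09% higher. The median difference of the members was -0.80, against -0.05 over all genes tested. Of 25 members with another bright probe set (one that also reached the array median on at least 2 arrays), 12 had at least 1 that lay more than 0.5 from the one used, lower for 5 genes and higher for 7. The largest fall was that of E2F8 and the highest value was 0.13 for RFC5. The responses of 37 members lay below that of EV in all 4 FoxO lines, against 20.7% of all genes tested, and those of 0 members lay above EV in all 4, against 15.7%. RFC5 was below EV in 1 line and CCNE2 in 2.

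The responses were lower with FoxO3 than with FoxO1 in both cell lines. In RCC4 the members' median response was -1.24 with FoxO3, -0.30 with FoxO1 and 0.03 with EV, which is 42.3%, 81.4% and 102% of the vehicle level. In UMRC2 the medians were -1.31 with FoxO3, -0.63 with FoxO1 and -0.06 with EV, or 40.5%, 64.8% and 95.7%. At least a 2-fold fall below vehicle in both FoxO3 lines was seen for 27 members, against 5.34% of all genes tested, and in both FoxO1 lines for 0 members, against 0.784%.

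**Figure D1:**
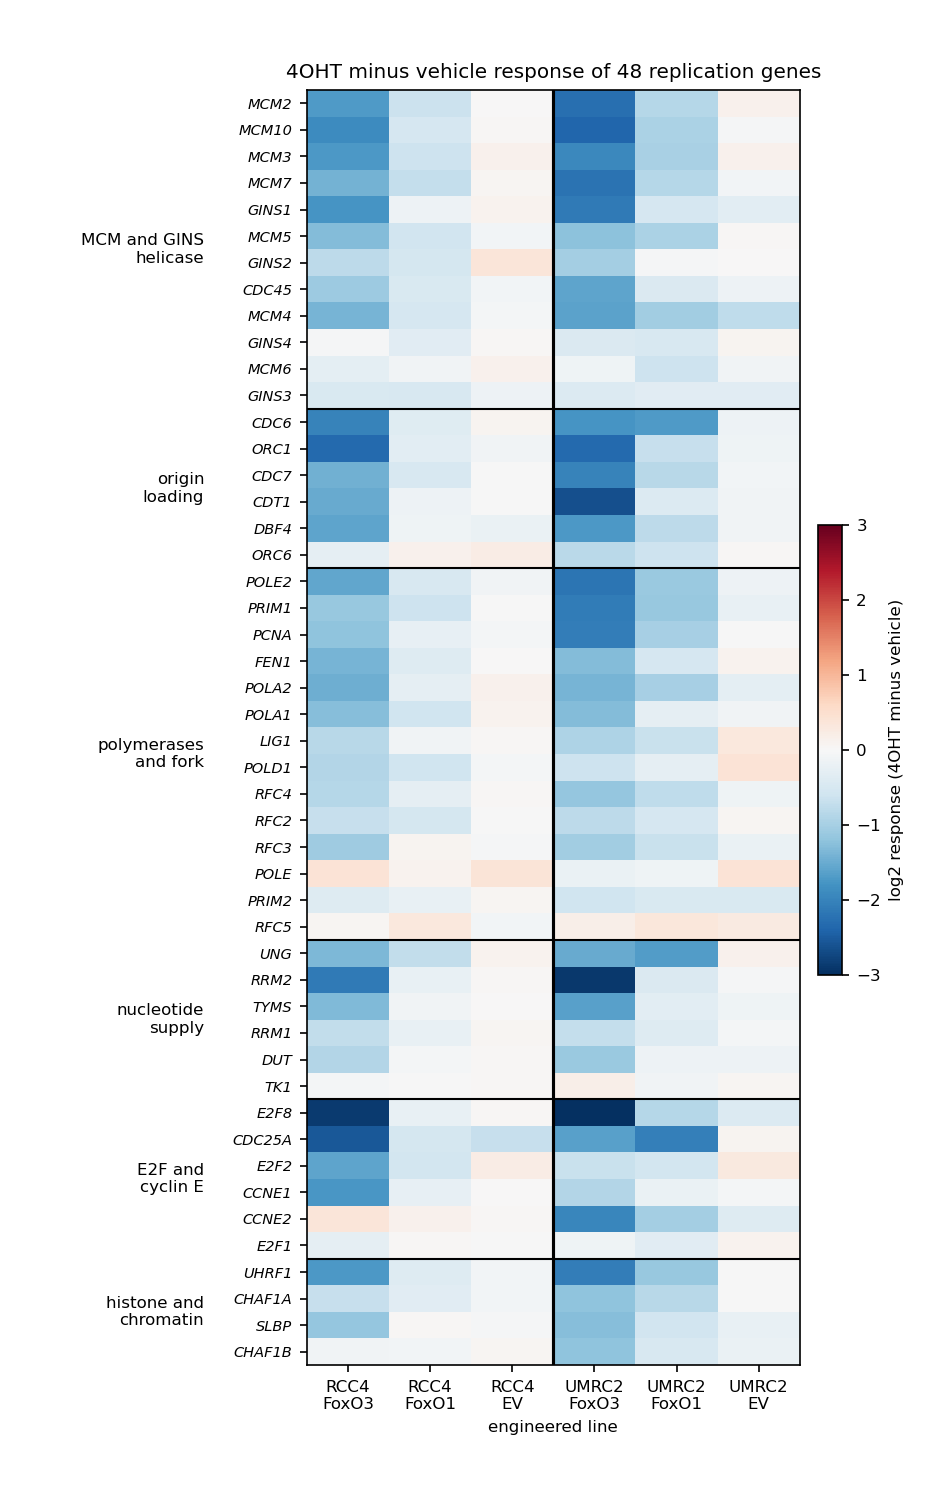
Log2 response to 4OHT (4OHT minus vehicle, colour) of each of the 48 genes (rows, by role) in the 6 engineered lines (columns, FoxO3, FoxO1 and EV within each cell line). Blue is lower with 4OHT: the FoxO3 columns are the darkest, with medians of -1.24 in RCC4 and -1.31 in UMRC2, and the EV columns lie near 0.

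The 26 calls rest on the settings of the test. By limma they were 0 without the filter on dim genes, 0 with a constant prior variance and 0 with FoxO1 and FoxO3 as replicates of one another. At an unadjusted p below 0.05 limma gave 35, 34 and 23 members under these settings, and 3405, 2731 and 1663 of all genes tested. The comparison as made gave 38 members and 3306 genes. With values as deposited 3 members were called, and 184 of all genes tested in either direction. The calls also changed with the pair left out. The members' median was -0.85 without the RCC4 FoxO3 pair, -0.79 without the UMRC2 FoxO1 pair, -0.77 without the EV pair of UMRC2 and -0.90 without that of RCC4. Each construct's n is 2 cell lines, and the cell line term takes out a shift shared by a line. The p-values thus measure how far construct differences varied between lines, with a spread partly shared between genes, and not the spread between cultures.

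The MCM and GINS helicase unwinds DNA at the fork. Of its 12 genes, 7 fell with FoxO against EV, 9 with FoxO3 alone and 0 with FoxO1 alone, and none rose. MCM2, a subunit of the MCM ring, had the lowest value of the group. In RCC4 its level was 11.06 (FoxO3), 12.25 (FoxO1) and 12.70 (EV) with 4OHT, against 12.76 (FoxO3), 12.91 (FoxO1) and 12.67 (EV) with vehicle. In UMRC2 MCM2 stood at 9.96 (FoxO3), 11.29 (FoxO1) and 12.23 (EV) with 4OHT, against 12.21 (FoxO3), 12.15 (FoxO1) and 12.10 (EV) with vehicle. All 4 FoxO arrays with 4OHT lay below every vehicle array of their cell line, and the EV arrays with 4OHT did not. The difference from EV was -1.45 ± 0.16, adjusted p = 0.00597 for both fusions together, and -2.06 for FoxO3. MCM3, MCM7, MCM10 and GINS1 fell by 1.04 to 1.43 against EV. The other bright probe set of MCM7 gave -0.74 and those of MCM10 -1.18 and -0.31, so the size for these genes depends on the probe set.

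MCM4, another ring subunit, had 11.59 (FoxO3), 12.27 (FoxO1) and 12.73 (EV) with 4OHT, against 12.99 (FoxO3), 12.78 (FoxO1) and 12.79 (EV) with vehicle in RCC4. MCM4 in UMRC2 had 10.999 (FoxO3), 11.68 (FoxO1) and 11.84 (EV) with 4OHT, against 12.60 (FoxO3), 12.72 (FoxO1) and 12.60 (EV) with vehicle. Its UMRC2 EV response of -0.76 was the lowest of any member in that line, so that UMRC2 FoxO1 differed less from EV than from its own vehicle array. MCM4 fell by 0.72 against EV (adjusted p = 0.0229). Another bright probe set of MCM4 gave 0.00 and 3 others -1.14 to -0.76.

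MCM6, a ring subunit with 4 E2F matches in the stretch above, did not pass the test. In RCC4 its level was 12.25 (FoxO3), 12.28 (FoxO1) and 12.45 (EV) with 4OHT, against 12.53 (FoxO3), 12.39 (FoxO1) and 12.31 (EV) with vehicle. MCM6 in UMRC2 was at 12.13 (FoxO3), 11.75 (FoxO1) and 12.04 (EV) with 4OHT, against 12.25 (FoxO3), 12.37 (FoxO1) and 12.15 (EV) with vehicle. The FoxO and EV responses were close, from -0.62 in UMRC2 FoxO1 to 0.13 in RCC4 EV, and the difference from EV was -0.30 ± 0.15, adjusted p = 0.306, with a 95% interval of -0.66 to 0.06. A dimmer probe set of the same gene gave -1.05.

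GINS3 and GINS4, subunits of the GINS complex, also failed to pass. GINS3 was at 8.53 (FoxO3), 8.44 (FoxO1) and 8.73 (EV) with 4OHT, against 8.99 (FoxO3), 8.92 (FoxO1) and 8.88 (EV) with vehicle in RCC4. In UMRC2 GINS3 was at 8.28 (FoxO3), 8.59 (FoxO1) and 8.78 (EV) with 4OHT, against 8.69 (FoxO3), 8.92 (FoxO1) and 9.12 (EV) with vehicle. All 6 responses of GINS3 were below 0, the EV lines included, and it differed from EV by -0.18 ± 0.23, adjusted p = 0.712. Its other bright probe set gave -1.12 against EV, with FoxO3 and FoxO1 responses of -1.30 and -0.57 in RCC4 and -1.30 and -1.01 in UMRC2, so the result for this gene depends on the probe set. GINS4 in RCC4 was at 8.81 (FoxO3), 8.67 (FoxO1) and 8.89 (EV) with 4OHT, against 8.85 (FoxO3), 9.02 (FoxO1) and 8.84 (EV) with vehicle. GINS4 in UMRC2 was at 8.21 (FoxO3), 8.06 (FoxO1) and 8.33 (EV) with 4OHT, against 8.65 (FoxO3), 8.54 (FoxO1) and 8.24 (EV) with vehicle. On this probe set it was the 1 member whose response was higher with FoxO3 than with FoxO1 in both cell lines, and it differed from EV by -0.40 ± 0.24, adjusted p = 0.379. The other 2 bright GINS4 probe sets gave -0.87 and -1.19 against EV. The other genes of this role without a call in the joint comparison were GINS2 (-0.79 ± 0.20, adjusted p = 0.059) and CDC45 (-0.78 ± 0.21, adjusted p = 0.0702), which both fell with FoxO3 alone.

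Origin loading had the lowest median of the 6 roles, -1.13 against EV, and 5 of its 6 genes fell. CDC6, an ATPase that loads MCM rings on origins, was at 8.12 (FoxO3), 9.55 (FoxO1) and 10.05 (EV) with 4OHT, against 10.11 (FoxO3), 9.91 (FoxO1) and 9.96 (EV) with vehicle in RCC4. In UMRC2 CDC6 was at 7.95 (FoxO3), 8.41 (FoxO1) and 9.34 (EV) with 4OHT, against 9.70 (FoxO3), 10.10 (FoxO1) and 9.49 (EV) with vehicle. FoxO3 was the lowest array of each line with 4OHT, and FoxO1 lay below both EV arrays in each. CDC6 differed from EV by -1.42 ± 0.32, adjusted p = 0.0396. CDT1, the partner of CDC6 in loading, and ORC1, the largest origin recognition subunit, fell by 1.12 and 1.30.

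DBF4, the activating subunit of the CDC7 kinase, was at 10.14 (FoxO3), 11.43 (FoxO1) and 11.61 (EV) with 4OHT, against 11.73 (FoxO3), 11.56 (FoxO1) and 11.82 (EV) with vehicle in RCC4. DBF4 in UMRC2 was at 8.90 (FoxO3), 9.94 (FoxO1) and 10.70 (EV) with 4OHT, against 10.61 (FoxO3), 10.74 (FoxO1) and 10.80 (EV) with vehicle. FoxO3 arrays with 4OHT were the lowest of each line, and the RCC4 FoxO1 response of -0.13 lay above the RCC4 EV response of -0.21. DBF4 differed from EV by -0.90 ± 0.19, adjusted p = 0.0346 and its kinase partner CDC7 by -1.14 ± 0.21, adjusted p = 0.0207. ORC6, the smallest origin recognition subunit, read from a probe set type that may share probes with other transcripts, was at 11.24 (FoxO3), 11.61 (FoxO1) and 11.48 (EV) with 4OHT, against 11.51 (FoxO3), 11.47 (FoxO1) and 11.26 (EV) with vehicle in RCC4. ORC6 in UMRC2 was at 10.05 (FoxO3), 10.29 (FoxO1) and 10.72 (EV) with 4OHT, against 10.86 (FoxO3), 10.92 (FoxO1) and 10.70 (EV) with vehicle. The UMRC2 FoxO arrays with 4OHT were the lowest, RCC4 FoxO1 lay above its vehicle array, and ORC6 did not pass (-0.52 ± 0.17, adjusted p = 0.111).

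**Figure D2:**
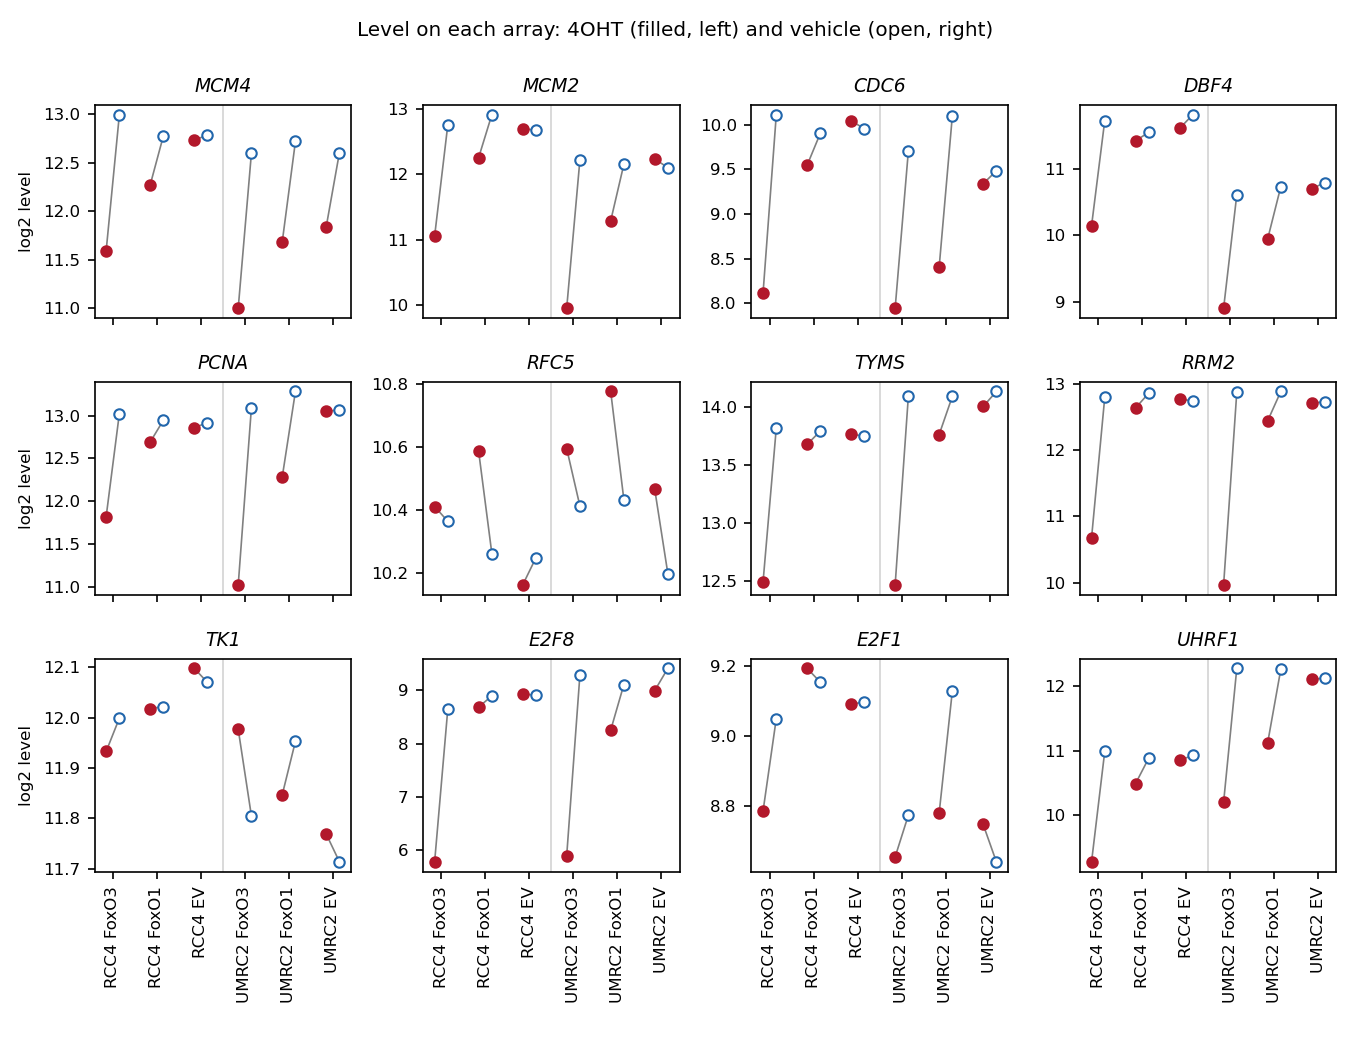
Log2 level on each of the 12 arrays for 12 members, with 4OHT (filled, left) joined to vehicle (open, right) in each engineered line. Each panel has its own vertical range, so RFC5, TK1 and E2F1 span under 1 log2 unit. The FoxO3 pairs of RRM2 and E2F8 show the widest gaps in each cell line, with RRM2 at 9.97 with 4OHT and 12.87 with vehicle in UMRC2.

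Of the 14 polymerase and fork genes, 7 fell against EV with both fusions together and 11 with FoxO3 alone. PCNA, the clamp that holds polymerases on DNA, was at 11.82 (FoxO3), 12.69 (FoxO1) and 12.86 (EV) with 4OHT, against 13.02 (FoxO3), 12.95 (FoxO1) and 12.92 (EV) with vehicle in RCC4. PCNA in UMRC2 was at 11.02 (FoxO3), 12.28 (FoxO1) and 13.05 (EV) with 4OHT, against 13.09 (FoxO3), 13.28 (FoxO1) and 13.07 (EV) with vehicle. The UMRC2 FoxO3 array kept 23.8% of its vehicle level, UMRC2 FoxO1 50% and UMRC2 EV 98.7%. PCNA differed from EV by -1.09 ± 0.19, adjusted p = 0.0164.

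FEN1, the nuclease that trims Okazaki fragments, was at 10.04 (FoxO3), 11.11 (FoxO1) and 11.25 (EV) with 4OHT, against 11.44 (FoxO3), 11.49 (FoxO1) and 11.24 (EV) with vehicle in RCC4. FEN1 in UMRC2 was at 11.35 (FoxO3), 12.17 (FoxO1) and 12.66 (EV) with 4OHT, against 12.65 (FoxO3), 12.68 (FoxO1) and 12.55 (EV) with vehicle. The FoxO3 responses were -1.40 in RCC4 and -1.30 in UMRC2, and FEN1 differed from EV by -0.96 ± 0.13, adjusted p = 0.00853. POLE2, a subunit of the leading strand polymerase epsilon, was at 8.03 (FoxO3), 9.23 (FoxO1) and 9.67 (EV) with 4OHT, against 9.59 (FoxO3), 9.70 (FoxO1) and 9.77 (EV) with vehicle in RCC4. POLE2 in UMRC2 was at 7.41 (FoxO3), 8.51 (FoxO1) and 9.60 (EV) with 4OHT, against 9.60 (FoxO3), 9.63 (FoxO1) and 9.75 (EV) with vehicle. Both UMRC2 fusions and the RCC4 FoxO3 array lay over 1 log2 unit below their vehicle arrays. POLE2 differed from EV by -1.21 ± 0.23, adjusted p = 0.0217, the lowest of this role.

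RFC5, a clamp loader subunit, was the exception. RFC5 in RCC4 was at 10.41 (FoxO3), 10.59 (FoxO1) and 10.16 (EV) with 4OHT, against 10.36 (FoxO3), 10.26 (FoxO1) and 10.25 (EV) with vehicle. In UMRC2 RFC5 was at 10.59 (FoxO3), 10.78 (FoxO1) and 10.46 (EV) with 4OHT, against 10.41 (FoxO3), 10.43 (FoxO1) and 10.20 (EV) with vehicle. All 4 FoxO responses were above 0, and the difference from EV was 0.13 ± 0.17, adjusted p = 0.707. Its other 2 bright probe sets gave -0.84 and -0.92, so the direction for this gene depends on the probe set. The other clamp loader genes fell with FoxO3 against EV: RFC2 by 0.76, RFC3 by 0.93 and RFC4 by 0.97. Of these only RFC4 also passed in the joint comparison. The other bright RFC2 probe set gave -0.13 for both fusions together, with FoxO3 minus EV at -0.60 in RCC4 and -0.21 in UMRC2. Those of RFC3 gave -1.13 and -0.77 for both fusions together. POLE and PRIM2, the catalytic subunit of polymerase epsilon and the large primase subunit, passed no comparison of responses, with -0.35 and -0.22 against EV.

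Nucleotide supply split by gene. TYMS, which makes thymidylate, was at 12.50 (FoxO3), 13.68 (FoxO1) and 13.76 (EV) with 4OHT, against 13.82 (FoxO3), 13.79 (FoxO1) and 13.75 (EV) with vehicle in RCC4. TYMS in UMRC2 was at 12.47 (FoxO3), 13.76 (FoxO1) and 14.002 (EV) with 4OHT, against 14.09 (FoxO3), 14.09 (FoxO1) and 14.13 (EV) with vehicle. The FoxO3 arrays with 4OHT stood more than 1 log2 unit below all the others and the FoxO1 arrays close to EV. TYMS differed from EV by -0.79 ± 0.09, adjusted p = 0.00597 and, with FoxO3 alone, by -1.41.

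RRM2, the regulated subunit of ribonucleotide reductase, was chosen after its values were seen. RRM2 in RCC4 was at 10.68 (FoxO3), 12.63 (FoxO1) and 12.78 (EV) with 4OHT, against 12.79 (FoxO3), 12.86 (FoxO1) and 12.73 (EV) with vehicle. RRM2 in UMRC2 was at 9.97 (FoxO3), 12.44 (FoxO1) and 12.70 (EV) with 4OHT, against 12.87 (FoxO3), 12.88 (FoxO1) and 12.73 (EV) with vehicle. With FoxO3 it kept 23.1% of its vehicle level in RCC4 and 13.3% in UMRC2, and it fell by 2.52 against EV (adjusted p = 0.00102). The large subunit gene RRM1 fell by 0.73 with FoxO3 (adjusted p = 0.00984).

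DUT, which removes dUTP from the nucleotide pool, was read from a probe set type that may share probes with other transcripts. DUT in RCC4 was at 12.63 (FoxO3), 13.50 (FoxO1) and 13.56 (EV) with 4OHT, against 13.50 (FoxO3), 13.57 (FoxO1) and 13.51 (EV) with vehicle. DUT in UMRC2 was at 12.30 (FoxO3), 13.21 (FoxO1) and 13.19 (EV) with 4OHT, against 13.40 (FoxO3), 13.38 (FoxO1) and 13.34 (EV) with vehicle. FoxO3 arrays were low in both lines, FoxO1 arrays lay within 0.1 of the EV array with 4OHT, and DUT differed from EV by -0.50 ± 0.09, adjusted p = 0.0221.

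UNG, the glycosylase that takes uracil out of DNA, was at 10.01 (FoxO3), 10.60 (FoxO1) and 11.30 (EV) with 4OHT, against 11.35 (FoxO3), 11.34 (FoxO1) and 11.20 (EV) with vehicle in RCC4. UNG in UMRC2 was at 9.17 (FoxO3), 8.92 (FoxO1) and 10.59 (EV) with 4OHT, against 10.69 (FoxO3), 10.60 (FoxO1) and 10.46 (EV) with vehicle. All 4 FoxO arrays with 4OHT were below the vehicle and EV arrays of their line, and UMRC2 FoxO1 was the lowest array of all. UNG differed from EV by -1.44 ± 0.22, adjusted p = 0.0127, with -1.55 for FoxO3 and -1.33 for FoxO1 (adjusted p = 0.137). The FoxO3 minus FoxO1 difference was -0.22, with a 95% interval of -0.82 to 0.39.

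TK1, the thymidine salvage kinase, spanned less than 1 log2 unit over all arrays. TK1 in RCC4 was at 11.93 (FoxO3), 12.02 (FoxO1) and 12.10 (EV) with 4OHT, against 11.999 (FoxO3), 12.02 (FoxO1) and 12.07 (EV) with vehicle. TK1 in UMRC2 was at 11.98 (FoxO3), 11.85 (FoxO1) and 11.77 (EV) with 4OHT, against 11.80 (FoxO3), 11.95 (FoxO1) and 11.71 (EV) with vehicle. The array with the widest response was UMRC2 FoxO3 at 0.17, and the difference from EV was -0.04 ± 0.13, adjusted p = 0.894, with a 95% interval of -0.35 to 0.26. A second bright TK1 probe set gave -0.27. On it FoxO3 minus EV was -0.79 in RCC4 and -0.073 in UMRC2, and FoxO1 minus EV was 0.11 and -0.32, so the RCC4 FoxO3 value depends on the probe set.

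In the E2F and cyclin E role 1 of 6 genes fell in the joint comparison and 3 with FoxO3 alone. E2F8, a repressor that E2F factors switch on in S phase, had the lowest value of all members. E2F8 in RCC4 was at 5.79 (FoxO3), 8.69 (FoxO1) and 8.94 (EV) with 4OHT, against 8.66 (FoxO3), 8.90 (FoxO1) and 8.91 (EV) with vehicle. E2F8 in UMRC2 was at 5.90 (FoxO3), 8.26 (FoxO1) and 8.998 (EV) with 4OHT, against 9.28 (FoxO3), 9.11 (FoxO1) and 9.42 (EV) with vehicle. The FoxO3 arrays with 4OHT dropped below the array median, to 13.7% of the vehicle level in RCC4 and 9.57% in UMRC2, and no other array was near them. E2F8 differed from EV by -1.64 ± 0.24, adjusted p = 0.0107.

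E2F1, an activating E2F with 2 matches to the motif in its own promoter stretch, did not pass. E2F1 in RCC4 was at 8.79 (FoxO3), 9.19 (FoxO1) and 9.09 (EV) with 4OHT, against 9.05 (FoxO3), 9.15 (FoxO1) and 9.10 (EV) with vehicle. E2F1 in UMRC2 was at 8.65 (FoxO3), 8.78 (FoxO1) and 8.75 (EV) with 4OHT, against 8.77 (FoxO3), 9.13 (FoxO1) and 8.64 (EV) with vehicle. FoxO and EV arrays overlapped, the difference from EV was -0.22 ± 0.23, adjusted p = 0.633 with a 95% interval of -0.76 to 0.32, and another bright probe set gave 0.32. E2F2, an activating relative, fell by 1.37 with FoxO3 (adjusted p = 0.0243). The other bright E2F2 probe set gave smaller FoxO3 minus EV values, -0.77 in RCC4 and -0.63 in UMRC2. Its FoxO1 minus EV values were -0.47 in RCC4 and -1.03 in UMRC2.

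CCNE1, a cyclin that activates CDK2 at the start of S phase, was at 7.68 (FoxO3), 9.01 (FoxO1) and 9.28 (EV) with 4OHT, against 9.42 (FoxO3), 9.27 (FoxO1) and 9.28 (EV) with vehicle in RCC4. CCNE1 in UMRC2 was at 7.68 (FoxO3), 8.58 (FoxO1) and 9.02 (EV) with 4OHT, against 8.55 (FoxO3), 8.78 (FoxO1) and 9.07 (EV) with vehicle. The FoxO3 arrays with 4OHT were the lowest of each line. CCNE1 fell by 1.29 with FoxO3 (adjusted p = 0.029) and did not pass in the joint comparison (-0.74 ± 0.27, adjusted p = 0.146). CDC25A, the phosphatase that frees CDK2, had the widest errors of the members and did not pass (-1.38 ± 0.53, adjusted p = 0.17). Its response was -2.55 in RCC4 FoxO3 and -2.05 in UMRC2 FoxO1, and also -0.70 in RCC4 EV. The other 2 bright CDC25A probe sets gave -2.24 and -0.90 in RCC4 FoxO3, 0.064 and -0.48 in UMRC2 FoxO1 and 0.047 and 0.019 in RCC4 EV, and -1.04 each against EV.

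Among the histone and chromatin genes, UHRF1, which reads hemimethylated DNA behind the fork, was at 9.28 (FoxO3), 10.49 (FoxO1) and 10.85 (EV) with 4OHT, against 10.99 (FoxO3), 10.89 (FoxO1) and 10.93 (EV) with vehicle in RCC4. UHRF1 in UMRC2 was at 10.20 (FoxO3), 11.12 (FoxO1) and 12.11 (EV) with 4OHT, against 12.28 (FoxO3), 12.27 (FoxO1) and 12.13 (EV) with vehicle. All 4 FoxO lines were lower with 4OHT and FoxO3 the most, and UHRF1 differed from EV by -1.28 ± 0.19, adjusted p = 0.0107. SLBP, which binds the ends of histone mRNAs, was at 10.76 (FoxO3), 11.89 (FoxO1) and 11.88 (EV) with 4OHT, against 11.93 (FoxO3), 11.85 (FoxO1) and 11.90 (EV) with vehicle in RCC4. SLBP in UMRC2 was at 10.54 (FoxO3), 11.28 (FoxO1) and 11.63 (EV) with 4OHT, against 11.81 (FoxO3), 11.84 (FoxO1) and 11.84 (EV) with vehicle. RCC4 FoxO1 did not separate from EV, and SLBP fell by 1.09 with FoxO3 (adjusted p = 0.00648) while the joint value was -0.62 ± 0.15, adjusted p = 0.0517.

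CHAF1B, a subunit of the chromatin assembly factor, was at 8.76 (FoxO3), 8.94 (FoxO1) and 9.04 (EV) with 4OHT, against 8.88 (FoxO3), 9.01 (FoxO1) and 8.98 (EV) with vehicle in RCC4. CHAF1B in UMRC2 was at 7.91 (FoxO3), 8.57 (FoxO1) and 8.60 (EV) with 4OHT, against 9.11 (FoxO3), 9.04 (FoxO1) and 8.80 (EV) with vehicle. It was low in UMRC2 FoxO3 and little moved in RCC4, and differed from EV by -0.40 ± 0.26, adjusted p = 0.419. CHAF1A, the large subunit, fell by 0.90 with FoxO3 (adjusted p = 0.0413).

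The second question was whether FoxO3 and FoxO1 differed. FoxO3 against EV lowered 36 of 48 members and raised none, when 10% of all genes tested were lower and 6.6% higher, with a member median of -1.27. FoxO1 against EV called 0 members in either direction, when 0% of all genes tested were lower and 0.084% higher. Its member median was -0.42. At an unadjusted p below 0.05 limma gave 18 members and 1430 of all genes tested for FoxO1. When either FoxO3 pair was left out, FoxO1 against EV called more members and more of all genes tested. Both comparisons use the same EV arrays, so their values stand side by side: FoxO1 responses were below EV in both cell lines for 39 members, against 31.3% of all genes, and FoxO3 responses for 44, against 38%.

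Set directly against FoxO1, FoxO3 gave lower responses for 18 members and higher for none, when 3.65% of all genes tested were lower and 2.16% higher, with a member median of -0.78. The widest differences were those of E2F8 (-2.59 ± 0.28, adjusted p = 0.0088), RRM2 (-2.18 ± 0.19, adjusted p = 0.00619), ORC1 (-1.83 ± 0.28, adjusted p = 0.0199) and CDT1 (-1.78 ± 0.28, adjusted p = 0.0207). CDT1 was read from a probe set type that may share probes with other transcripts, with responses of -2.63 (FoxO3) and -0.42 (FoxO1) in UMRC2. Its other bright probe set had narrower gaps. It gave -1.68 (FoxO3) and -0.81 (FoxO1) in UMRC2, and -1.56 and -0.43 in RCC4, where the one used gave -1.51 and -0.15. In both cell lines the FoxO3 response was below the FoxO1 response for 39 members, against 35.9% of all genes tested. By role the calls were 6 of 12 helicase genes, 4 of 6 origin genes, 2 of 14 polymerase genes, 3 of 6 nucleotide genes, 1 of 6 E2F and cyclin E genes and 2 of 4 chromatin genes.

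**Figure D3:**
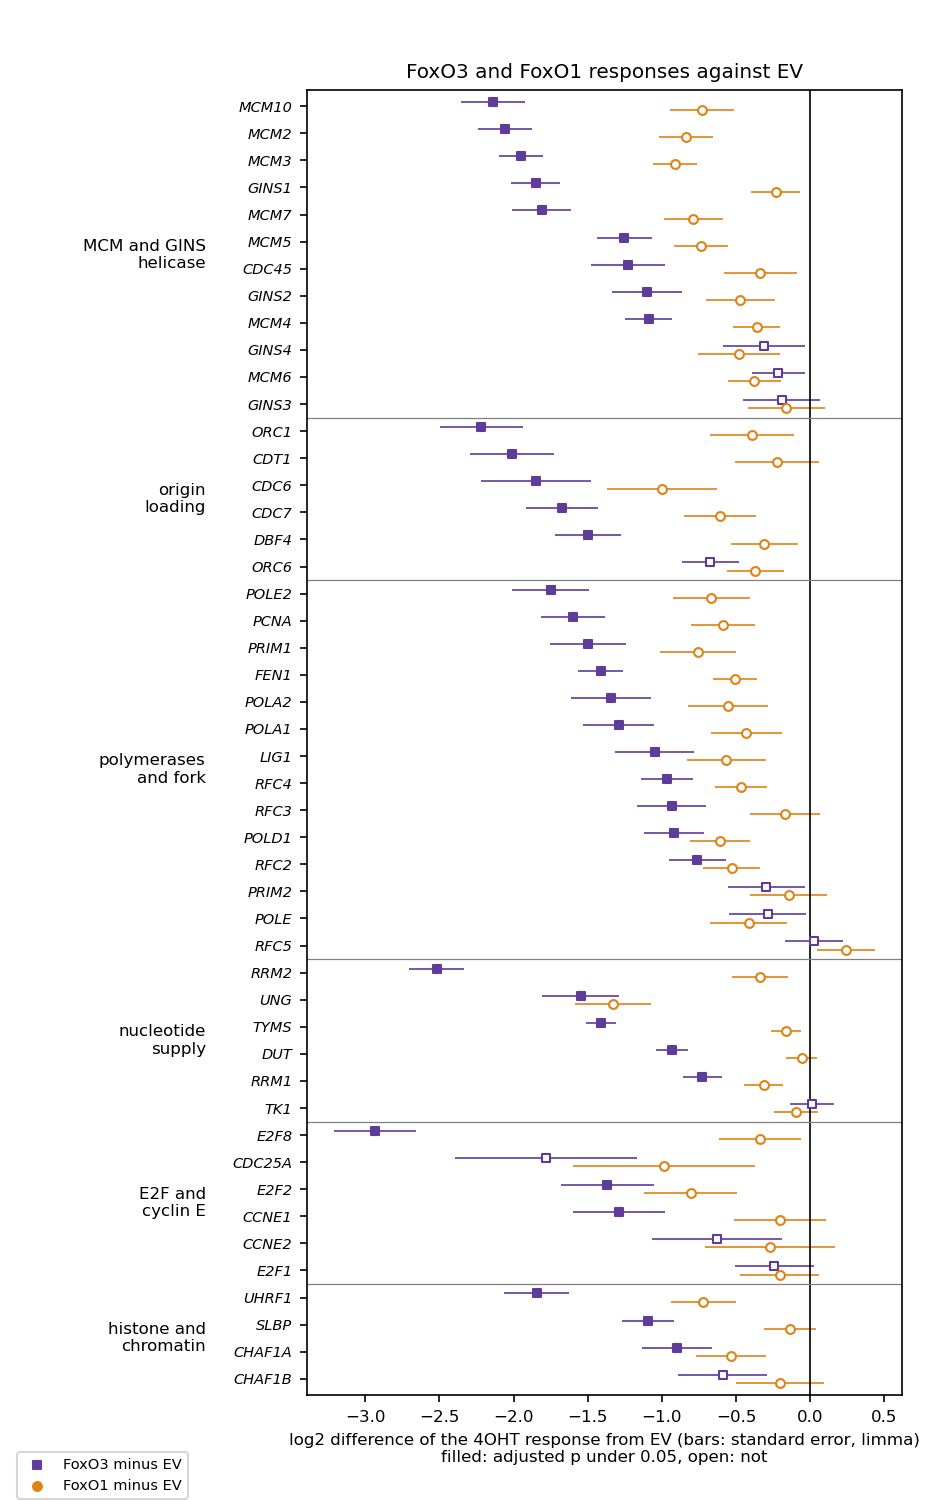
Log2 difference of the response from EV for FoxO3 (squares) and FoxO1 (circles), by gene and role, with limma standard errors as bars and filled points where the adjusted p was below 0.05. FoxO3 points are filled for 36 genes and FoxO1 points for 0, and the pair lies close together in UNG, GINS3, MCM6, TK1 and E2F1.

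The fusion transcripts moved with this contrast. The median level of the raised ESR1 probe sets with vehicle was 12.42 in RCC4 FoxO3 and 9.17 in RCC4 FoxO1, and 13.15 in UMRC2 FoxO3 and 12.22 in UMRC2 FoxO1, against 5.24 and 4.59 in RCC4 and UMRC2 EV. The part of fusion dose in the difference between FoxO3 and FoxO1 was not tested. Without the RCC4 FoxO3 pair the calls were 28 for FoxO3 against EV and 13 for FoxO3 against FoxO1, and without the RCC4 FoxO1 or the UMRC2 FoxO1 pair those of FoxO3 against FoxO1 were 2 and 6. With values as deposited the calls for FoxO3 against EV and against FoxO1 were 18 and 2, when 583 and 46 of all genes tested were called in either direction. By limma they were 0 without the filter on dim genes or with a constant prior variance. At an unadjusted p below 0.05 limma gave 37 and 29 members without the filter, and 4284 and 3133 of all genes tested. With a constant prior variance it gave 37 and 23 members, and 3700 and 2490 genes.

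The third question was whether the cell lines differed. The difference of the FoxO minus EV response between RCC4 and UMRC2 passed for 0 members and for 0% of all genes tested in either direction (0 members and 338 genes at an unadjusted p below 0.05 by limma), and its median over the members was 0.25, but 0.67 without the RCC4 FoxO3 pair and -0.13 without the RCC4 FoxO1 pair. With FoxO1 the median member response minus EV was -0.29 in RCC4 and -0.57 in UMRC2, and with FoxO3 it was -1.20 and -1.22. For 27 members the response minus EV was lower in UMRC2 than in RCC4 with both fusions, against 35% of all genes tested. The fusion transcript of the FoxO1 lines was the lower in RCC4, as given above, and its part was not tested. Across the 48 members the FoxO3 responses of the RCC4 and UMRC2 lines, which share no array, had a Pearson r of 0.753 (0.55 over all genes tested), and the FoxO1 responses 0.441 (0.246).

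Members with an E2F match were compared with the others as a description. The 24 with a match had a median difference from EV of -1.06 for both fusions, with 14 lower, and -1.48 for FoxO3, with 19 lower. The 19 with a window but no match had -0.72 with 9 lower, and -0.97 with 14 lower. Both groups held members with and without a call: MCM6, GINS3 and E2F1, whose values depend on the probe set, had matches without a call, and RRM2, ORC1 and MCM10 fell without a match. Matches here are to the full E2F letters, and RRM2 did hold a match when the first T was left out. The 5 members without a window in the table were CCNE2, E2F8, GINS4, MCM4 and MCM5.

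In the EV lines 4OHT itself moved these genes little. The EV response passed for 0 members and 0% of all genes tested in either direction (1 member and 339 genes at an unadjusted p below 0.05 by limma). Averaged over the 2 cell lines, it had a member median of -0.03 and a range of -0.41 to 0.40. In the single pairs members ran from -0.70 to 0.39 in RCC4 EV and from -0.76 to 0.41 in UMRC2 EV. Before 4OHT the FoxO lines did not separate from EV either, with 0 members and 0% of genes called (9 members and 1224 genes at an unadjusted p below 0.05 by limma) and a member median of 0.08.

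The vehicle levels of the cell lines did differ, with 18 members higher and 11 lower in RCC4 than in UMRC2, when 26.6% of all genes tested were higher and 23.7% lower. CDC25A (1.41 ± 0.20) and DBF4 (0.99 ± 0.08) were among the higher, and UHRF1 (-1.29 ± 0.06) and FEN1 (-1.24 ± 0.05) among the lower. The intensity level as deposited and the cell line cannot be told apart on the vehicle arrays. With values as deposited 40 members were higher and 2 lower, when 10409 of all genes tested were called in either direction. With a common median 21 members were higher and 6 lower, when 7143 of all genes tested were called. The members' median difference was 0.060 without the vehicle array of either FoxO3 line.

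Further genes of the same processes were described in the same way. Of 37 further replication genes tested, 5 fell and 0 rose with FoxO against EV, with a median of -0.50, and 14 fell with FoxO3 alone. TICRR, which helps fire origins, fell by 2.66 with FoxO3 (adjusted p = 0.00784) and RECQL4, a helicase needed at origins, by 1.77 (adjusted p = 0.0107). POLD4, the small subunit of polymerase delta, and RRM2B, the p53-induced reductase subunit, had the highest values against EV, 0.59 ± 0.26, adjusted p = 0.229 and 0.33 ± 0.22, adjusted p = 0.415. The POLD4 value draws on a fall in RCC4 EV, to 7.42 with 4OHT from 8.50 with vehicle. In RCC4 its levels were 8.62 (FoxO3) and 8.92 (FoxO1) with 4OHT, against 8.87 and 9.01 with vehicle. In UMRC2 they were 10.13 (FoxO3) and 9.715 (FoxO1) with 4OHT, against 9.54 and 9.67 with vehicle.

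The E2F partners and pocket proteins were mixed. Of 10 genes 1 fell with FoxO against EV, TFDP1, the common partner of E2F factors (-0.63 ± 0.13, adjusted p = 0.033). With FoxO3 alone 3 fell and 2 rose. RBL2, which encodes the pocket protein p130 that binds E2F4 in resting cells, rose by 1.41 against EV (adjusted p = 0.00851), and RB1 rose by 0.77 (adjusted p = 0.0437). With FoxO3, RBL2 was at 10.215 with 4OHT and 9.28 with vehicle in RCC4, and at 10.73 and 9.65 in UMRC2. Part of its value against EV comes from a fall in RCC4 EV, to 9.54 with 4OHT from 10.17 with vehicle. E2F5, a repressing E2F that works with p130, fell by 2.03 (adjusted p = 0.014), and E2F6, a repressor without a pocket protein site, fell by 1.05 (adjusted p = 0.0217).

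The mitosis genes, which act after replication, fell with FoxO3, and none passed with FoxO1. All 10 fell with FoxO3 against EV and against FoxO1, with medians of -1.31 and -1.42. With FoxO1 against EV 0 of 10 were called, none at an unadjusted p below 0.05 by limma, with a median of 0.01, where the 48 replication members had -0.42. CDC20, which activates the anaphase complex, and CCNA2, cyclin A2, fell by 2.39 and 2.11 with FoxO3, and BUB1 and AURKA, kinases of the spindle, by 0.96 and 1.09. Their FoxO1 values against EV were -0.12 for CDC20, -0.19 for CCNA2, 0.10 for BUB1 and 0.26 for AURKA. The difference between the gene groups themselves was not tested.

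**Figure D4:**
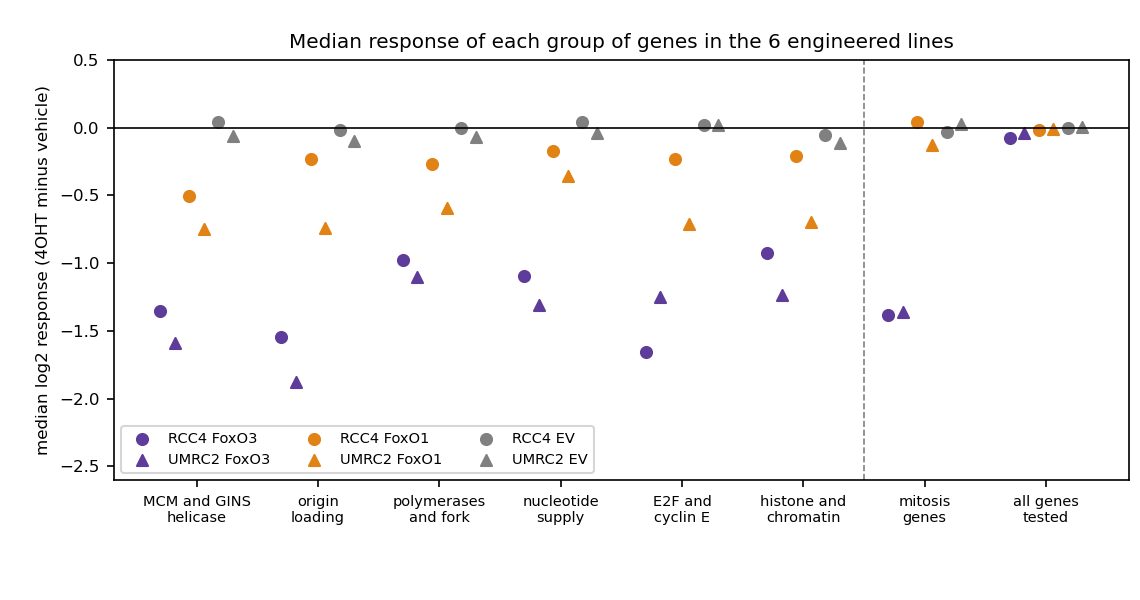
Median log2 response to 4OHT of each group of genes (vertical axis) in the 6 engineered lines: FoxO3 (purple), FoxO1 (orange) and EV (grey), with circles for RCC4 and triangles for UMRC2. In RCC4 and UMRC2 the FoxO1 medians of the mitosis genes are 0.04 and -0.13, while FoxO3 medians are -1.38 and -1.36, and the medians of all genes tested lie near 0 in every line.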

How the data were processed

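Total RNA of 12 cultures was hybridised to Affymetrix U133 Plus 2.0 arrays. The deposited values are linear intensities per probe set, made with MAS5 per the submitters' processing notes, and its version and scaling target are not given in the sources used here. Of 54675 probe sets, 62 were controls, 41091 had 1 gene symbol, 1801 several and 11721 none, and the last 2 kinds were left out. The intensities were quantile-normalised, raised to the 20th percentile (18.0) and put on the log2 scale. A gene was read from its highest-mean probe set and tested where this reached the array median on at least 2 arrays. Precision is limited by the number of arrays.

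The model of the 6 responses held a construct term and a cell line term (limma 3.58.1, R 4.3.3). It had 2 residual degrees of freedom and a prior variance, worth 5.46 degrees of freedom, that depended on each gene's mean level. The difference between the lines took FoxO1 and FoxO3 as replicates within a line, and vehicle levels were fitted over the 6 vehicle arrays. Tests are two-sided, adjusted by Benjamini-Hochberg over all genes tested, at 0.05, and errors after ± are standard errors. The procedure was tested on simulated data. Values on each array are given for the 2 members of each role with the highest mean level, for the lowest and highest of each role against EV, and for the lowest and highest of FoxO3 against FoxO1. Further genes are the 2 lowest and 2 highest of each further list, and others named were chosen after their values were seen. The members and lists were chosen with earlier results of these data known. A further marker gene is not reported here. Alternatives covered scaling, floor, filter, probe set, prior variance, model terms and each left-out pair.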

Additional observations from a re-analysis of the deposited data

Results flagged for a closer look

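CCNE2, a second cyclin of CDK2, was the 1 member whose FoxO minus EV responses all lay on one side of 0 in RCC4 and on the other in UMRC2. In RCC4 they were 0.32 with FoxO3 and 0.090 with FoxO1, and in UMRC2 -1.58 with FoxO3 and -0.63 with FoxO1. CCNE2 in RCC4 was at 9.22 (FoxO3), 8.80 (FoxO1) and 8.78 (EV) with 4OHT, against 8.86 (FoxO3), 8.67 (FoxO1) and 8.74 (EV) with vehicle. In UMRC2 it was at 7.05 (FoxO3), 8.05 (FoxO1) and 8.51 (EV) with 4OHT, against 9.01 (FoxO3), 9.06 (FoxO1) and 8.89 (EV) with vehicle. The difference between the lines was 1.31 ± 0.72, adjusted p = 1 by limma, with a 95% interval of -0.49 to 3.11, so it did not pass. Each value rests on 1 pair of arrays. The other bright CCNE2 probe set did not show opposite sides: it gave -0.023 with FoxO3 and -0.42 with FoxO1 in RCC4, and -0.97 with FoxO3 and -0.25 with FoxO1 in UMRC2.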

How the results depend on the processing

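With 2 residual degrees of freedom and 1 array per condition, the calls depend on the spread shared between genes. By limma the members called lower were 0 for FoxO against EV, 0 for FoxO3 against EV and 0 for FoxO3 against FoxO1 without the filter on dim genes or with a constant prior variance, and 0 for FoxO against EV with the isoforms as replicates of one another; the cause was not tested. The fit already pairs the 4OHT and vehicle arrays of each engineered line and has the cell line as a term, and the labels give no replicate numbers for a further block. A left-out pair leaves a lone sample that is assumed to vary like the others.

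The members' median stayed below 0 for FoxO, FoxO1 and FoxO3 against EV and for FoxO3 against FoxO1 under every setting run, and no member called lower changed sign. With values as deposited, members called lower were 3 for FoxO against EV (median -1.08), 18 for FoxO3 against EV (-1.65) and 2 for FoxO3 against FoxO1 (-0.996). The median line difference was -0.14. Vehicle levels gave 40 members higher and 2 lower in RCC4 (0.88), when 10409 of all genes tested were called in either direction. The median responses were -2.10 in RCC4 FoxO3, -1.19 in UMRC2 FoxO3 and -0.90 in UMRC2 FoxO1. With a common median, the medians were -1.36 for FoxO3 against EV, 0.050 for the EV response and 0.11 for the UMRC2 EV response. They were 0.48 for the line difference and 0.24 for vehicle levels, where 6 members were lower and 7143 of all genes tested were called in either direction. The FoxO3 against EV median was -1.23 with genes at the array median on all 12 arrays and -1.13 with the mean of all probe sets, which also gave -0.58 for FoxO3 against FoxO1 and -1.08 in RCC4 FoxO3. Vehicle levels had 10 members higher without the filter and 7 lower with a constant prior variance. Of all genes tested 5597 and 6138 were called in either direction under these settings.

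Over the left-out pairs, members called lower ran from 4 to 29 for FoxO against EV, 0 to 4 for FoxO1 against EV and 2 to 19 for FoxO3 against FoxO1. The medians ran from -1.29 to -1.15 for FoxO3 against EV, -0.81 to -0.61 for FoxO3 against FoxO1, -0.15 to 0.13 for the EV response and -0.13 to 0.67 for the line difference, and vehicle levels had 11 to 14 members higher in RCC4.

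Values of single genes that did not pass changed sign for 19 genes. As deposited, RFC5 was -0.15 for FoxO and -0.35 for FoxO3 against EV, TK1 -0.32 for FoxO3 against EV, and FoxO3 against FoxO1 gave -0.071 for MCM6, -0.042 for GINS4, -0.086 for POLE and -0.073 for TK1. With a common median, FoxO3 against EV was -0.060 for RFC5 and -0.028 for TK1. With the mean of all probe sets, RFC5 was -0.54, -0.29 and -0.79 for FoxO, FoxO1 and FoxO3 against EV, E2F1 0.051 for FoxO and 0.19 for FoxO1, CHAF1A 0.0099 for FoxO1, and TK1 -0.21 for FoxO3 against EV and -0.11 against FoxO1.

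Over the left-out pairs, FoxO against EV ran from -0.0060 to 0.27 for RFC5, -0.11 to 0.027 for TK1 and -1.10 to 0.20 for CCNE2. FoxO1 against EV ran from -0.30 to 0.0044 for PRIM2, -0.46 to 0.061 for CCNE1, -0.12 to 0.0014 for DUT, -0.53 to 0.081 for CDT1, -0.93 to 0.38 for CCNE2, -0.45 to 0.036 for CHAF1B, -0.64 to 0.021 for DBF4, -0.52 to 0.18 for RFC3, -0.21 to 0.021 for TK1, -2.17 to 0.20 for CDC25A, -0.47 to 0.055 for E2F1 and -0.37 to 0.089 for SLBP. FoxO3 against EV ran from -0.12 to 0.16 for RFC5, -0.48 to 0.053 for MCM6, -0.13 to 0.15 for TK1 and -1.40 to 0.14 for CCNE2. FoxO3 against FoxO1 ran from -0.65 to 0.21 for UNG, -1.98 to 0.39 for CDC25A, -0.30 to 0.22 for E2F1, -0.011 to 0.35 for GINS4, -0.12 to 0.37 for POLE, -0.11 to 0.43 for MCM6, -0.14 to 0.079 for GINS3, -0.030 to 0.25 for TK1 and -1.12 to 0.41 for CCNE2.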
